A study of Mus musculus with 4 samples.

Results

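The genes of MHC class II antigen presentation were followed in mouse B lymphocytes with and without a mutation of PKCbeta, before and after stimulation. Of 10 listed genes, 9 had a probe set annotated to that gene alone, out of 22180 genes so annotated: H2-Aa, H2-Ab1, H2-Eb1, H2-DMa, H2-DMb1, H2-DMb2, H2-Oa, H2-Ob and Ciita. The probe set of Cd74, the invariant chain, was annotated to a microRNA gene as well, so Cd74 was not analysed here. A further probe set of H2-Oa, annotated to several genes, was left out by the same rule. All 9 genes exceeded the signal floor of 3.83, the median of all named probe set values, and 12456 genes in all did so. The members were named by their function and not by a measured value, though earlier results of these data were known.

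Each of the 4 groups was 1 Affymetrix array of total RNA from B220-sorted cells of C57BL/6 mice, taken from spleens, thymi and lymph nodes together. The groups were Tilcara, described as mutant for PKCbeta, stimulated (TIL_ST) and non-stimulated (TIL_NS), and wild type, stimulated (WT_ST) and non-stimulated (WT_NS). Stimulated cells had 10 ng/mL of the phorbol ester PMA and 1 µM of the calcium ionophore A23187 for 4 hours. The labels give neither the number and age of the mice nor the kind of mutation. No group has a replicate, so a difference between any 2 groups is a difference between single arrays, with no test. Prkcb, the gene of PKCbeta, had log2 signals of 7.27 in TIL_ST and 9.39 in TIL_NS, and of 7.28 in WT_ST and 9.42 in WT_NS, so its transcript level does not distinguish the genotypes and gives no check of their labels.

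MHC class II molecules are pairs of an alpha and a beta chain that display peptides from endosomes to CD4 T cells, and B cells use them to obtain T cell help. The chains leave the endoplasmic reticulum with the invariant chain, a fragment of which stays in the groove until H2-DM exchanges it for a peptide. H2-O, made mainly by B cells, binds H2-DM and inhibits it. Transcription of these genes depends on CIITA, a coactivator that binds no DNA itself and is held at the promoters by factors of the X box (the RFX complex and CREB) and of the Y box (NF-Y). PMA activates PKC enzymes and the ionophore raises cytosolic calcium, so both act downstream of the antigen receptor.

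The promoter stretches around the Y box letters are shown for the members that hold them. Any link between these letters and the size of a response was not tested. RefSeq promoter sequences (GRCm38.p6, 250 bases before to 50 after each start) were found for 7 of the 9 genes, all but H2-Ab1 and Ciita. Each was searched on both strands for the Y box letters TGATTGG, picked after the sequences had been seen, and for the X box letters AACNNATGATG. The X box letters are those that the members with ATGATG within 60 bases before the Y box letters have in common, so that these members match them by construction. No X box match overlapped a Y box match in these genes. The Y box letters were in 6 of the 7 genes' windows, against 7.82% of all 32851 windows. The X box letters were in 4 genes, against 0.137% of windows, and both occurred together in 9 windows in all (0.0274%), those of H2-DMb1, H2-DMb2, H2-Ob and H2-Eb1 and 5 others. In each of these 4 genes the X box letters lay upstream of the Y box letters on the same strand, with 15 to 18 bases between them. Below, capitals mark the matched letters, and each line reads 5′ to 3′ on the strand of the gene, from 60 bases before the Y box letters to 10 after.
H2-DMb1 (chr17:34153068-34153144, + strand): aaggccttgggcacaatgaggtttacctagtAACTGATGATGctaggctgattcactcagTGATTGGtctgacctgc
H2-DMb2 (chr17:34145097-34145173, + strand): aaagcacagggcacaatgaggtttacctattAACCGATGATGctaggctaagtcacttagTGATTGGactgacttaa
H2-Ob (chr17:34238786-34238862, + strand): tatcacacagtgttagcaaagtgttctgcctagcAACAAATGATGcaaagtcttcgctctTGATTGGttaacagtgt
H2-Eb1 (chr17:34305746-34305822, + strand): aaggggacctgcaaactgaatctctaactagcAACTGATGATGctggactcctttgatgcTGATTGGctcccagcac
H2-Oa (chr17:34092274-34092350, + strand): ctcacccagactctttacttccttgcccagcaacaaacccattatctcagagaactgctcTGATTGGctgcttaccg
H2-Aa (chr17:34287857-34287933, - strand): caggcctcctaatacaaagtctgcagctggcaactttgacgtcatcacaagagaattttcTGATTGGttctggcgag

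The windows of H2-DMb1 and H2-DMb2 had the same base at 64 of 77 positions (83.1%), and the other pairs of members at 24.7% to 41.6%. H2-DMa, with 2 start sites in the table, held neither motif in either window, which says only that these letters are not there. A match is a description of the letters and not evidence of a bound factor.

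The transcripts of the peptide editor H2-DM, of its inhibitor H2-O and of the transactivator Ciita fell with stimulation by 3.85-fold to 15.8-fold over both genotypes, whereas the chains of the class II molecule itself were 1.20-fold to 1.32-fold lower and did not pass the test. The test was limma with stimulation and genotype as terms and Benjamini-Hochberg adjustment over all 12456 genes. In this fit the 2 genotypes stand in for replicates of each state. The error, with 1 degree of freedom, is how far their responses were apart, moderated by limma towards a prior variance from all genes. Of the 9 genes, 6 fell, none rose and 3 were not called, where 22.8% of all genes fell and 22.0% rose. By size, the same 6 genes were at least 2-fold lower in both genotypes, against 11.9% of all genes in both, 14.3% in Tilcara and 15.9% in wild type. The median difference of the members was -2.01 in Tilcara and -2.56 in wild type, beside 0.040 and 0.033 over all genes. In such bulk samples, fewer cells of a type and less RNA per cell cannot be told apart.

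**Figure D1:**
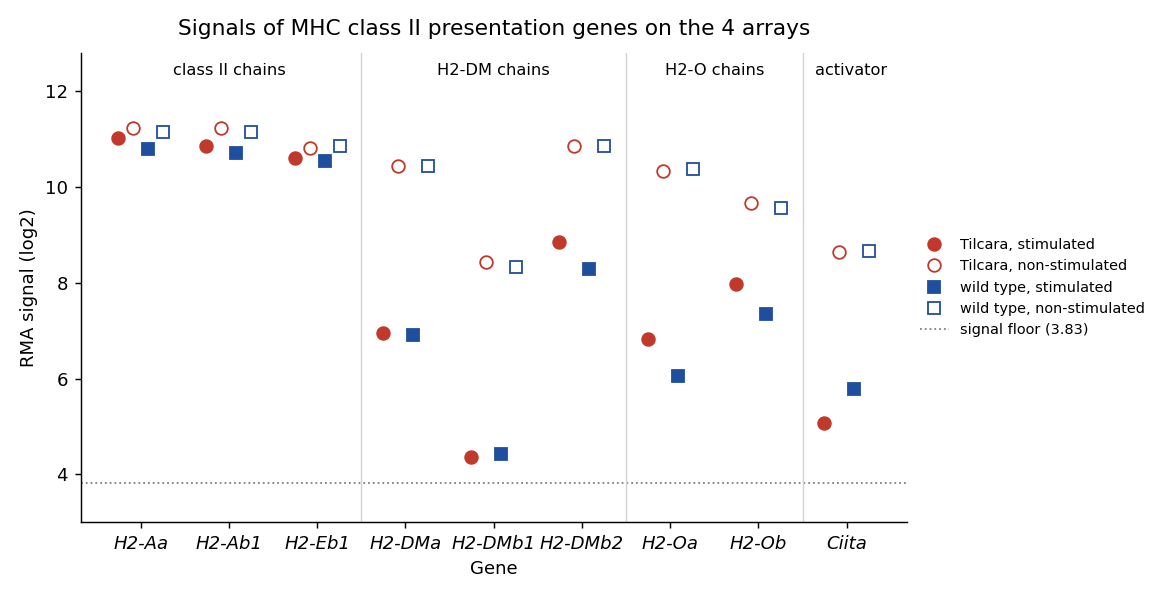
RMA signal (log2) of each gene on the 4 arrays, with Tilcara as circles and wild type as squares, stimulated filled and non-stimulated open; the dotted line is the signal floor of 3.83. Stimulated signals of the class II chains stay above 10.5, while those of H2-DM, H2-O and Ciita lie between 4.37 and 8.86.

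H2-Aa (probe set 17343813), the alpha chain of the I-A molecule, had log2 signals of 11.02 in TIL_ST and 11.23 in TIL_NS, and of 10.80 in WT_ST and 11.15 in WT_NS. H2-Ab1 (17336494), its beta chain, had 10.87 in TIL_ST and 11.24 in TIL_NS, and 10.72 in WT_ST and 11.15 in WT_NS. H2-Eb1 (17336502), the beta chain of I-E, had 10.60 in TIL_ST and 10.82 in TIL_NS, and 10.54 in WT_ST and 10.85 in WT_NS. In all 3 genes both stimulated arrays were lower than both non-stimulated ones, by 0.20 to 0.44 within a genotype. How many of all genes separate in this way was not counted. The limma changes were -0.27 (SE 0.15, adjusted p = 0.206) for H2-Aa, -0.40 (SE 0.15, adjusted p = 0.0867) for H2-Ab1 and -0.27 (SE 0.15, adjusted p = 0.209) for H2-Eb1. These calls depended on the prior variance: with one that follows mean signal, limma's adjusted p was 0.0131, 0.00217 and 0.0153 at the same changes. After cyclic loess H2-Ab1 alone passed, at -0.61 (limma, adjusted p = 0.0248), and that scaling moved the median wild-type difference of genes with a non-stimulated signal of at least 10 to -0.40, against -0.17 in the deposited values.

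The chains were read at the top of the signal range, where arrays can compress differences, and the part of that in their values was not tested. Their stimulated signals lay at the 98.9th to 99.5th percentile of the genes on each array, whose highest signals were 12.70 to 12.77. Of 214 genes with a mean non-stimulated signal between 10 and 12, which included 6 of the 9 members, 52 (24.3%) were at least 2-fold lower in both genotypes. H2-DMb2, H2-DMa and H2-Oa were among those 52.

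H2-DMa (17336407), the alpha chain of H2-DM, had log2 signals of 6.94 in TIL_ST and 10.43 in TIL_NS, and of 6.92 in WT_ST and 10.44 in WT_NS. It fell by 3.51 on the log2 scale (SE 0.15, limma, adjusted p = 0.00109), which is 11.4-fold. The genotypes' differences were nearly equal, -3.49 in Tilcara and -3.53 in wild type. H2-DMb1 (17336422), a beta chain of H2-DM, had 4.37 in TIL_ST and 8.43 in TIL_NS, and 4.43 in WT_ST and 8.33 in WT_NS. Its change of -3.98 (SE 0.15, limma, adjusted p = 0.00109) was the largest decrease of the 9, at rank 49 of all genes. Its stimulated signals were the nearest to the floor among the 9, so its 15.8-fold change is approximate. H2-DMb2 (17336414), the other beta chain, had 8.86 in TIL_ST and 10.87 in TIL_NS, and 8.29 in WT_ST and 10.85 in WT_NS. It fell by 2.29 (SE 0.20, limma, adjusted p = 0.00217).

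The beta chain genes of H2-DM thus differed in size of response, and their promoter stretches above are the most alike. Any relation between these 2 observations was not tested. The response of H2-DMb1 was below that of H2-DMb2 by 2.05 in Tilcara and by 1.33 in wild type. The letters of the array's probes were not among the files used here, so how far probes of these related genes cross-hybridise was not tested.

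H2-Oa (17336396), the alpha chain of H2-O, had log2 signals of 6.84 in TIL_ST and 10.34 in TIL_NS, and of 6.05 in WT_ST and 10.38 in WT_NS. It was 11.3-fold lower with stimulation in Tilcara and 20.1-fold lower in wild type, the largest wild-type difference of the 9, and it fell by 3.92 in limma (SE 0.24, adjusted p = 0.00141). H2-Ob (17336476), the beta chain, had 7.98 in TIL_ST and 9.67 in TIL_NS, and 7.36 in WT_ST and 9.56 in WT_NS. It fell by 1.95 (SE 0.19, limma, adjusted p = 0.00285), the smallest decrease among the 6 genes that passed. The measured responses of this heterodimer's chains therefore differed, that of H2-Oa lying below that of H2-Ob by 1.82 in Tilcara and by 2.13 in wild type. How far this depends on the probe sets was not tested.

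Ciita (17322842), the transactivator, had log2 signals of 5.08 in TIL_ST and 8.66 in TIL_NS, and of 5.78 in WT_ST and 8.66 in WT_NS. It was 11.9-fold lower with stimulation in Tilcara and 7.36-fold lower in wild type. Over both genotypes it fell by 3.23 (SE 0.22, limma, adjusted p = 0.00155). Ciita has alternative promoters that differ by cell type, and its probe set gives 1 value for the gene, so their use cannot be read here.

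Probe sets differ in brightness, so levels were not ranked between genes. Responses were put in order, although their measured size can also depend on the probe set, through compression, the floor or cross-hybridisation. In limma's order from the largest decrease the genes ran H2-DMb1, H2-Oa, H2-DMa, Ciita, H2-DMb2, H2-Ob, H2-Ab1, H2-Aa and H2-Eb1. Of the 8 gaps between neighbours in that order, 2 exceeded 2 standard errors of the gap, with the genes' errors taken as independent. These were the gap of 0.94 (SE 0.29) between Ciita and H2-DMb2 and that of 1.54 (SE 0.24) between H2-Ob and H2-Ab1. The other gaps were 0.0057 to 0.41 with standard errors of 0.21 to 0.29. The neighbours were set by sorting these same values, so the gaps are a description and not a test. Averaged over the genotypes, 4 genes lay between -3.98 and -3.23, a pair at -2.29 and -1.95, and the chains between -0.40 and -0.27. The gap between Ciita and H2-DMb2 differed by genotype: they were at -3.57 and -2.01 in Tilcara, and at -2.88 and -2.56 in wild type. The Tilcara response minus the wild-type response was -0.70 for Ciita and 0.55 for H2-DMb2. With these opposite signs the errors are not independent, and the standard error of 0.29 is too small for this gap. In wild type Ciita was nearer to H2-DMb2 than to H2-DMa, which was at -3.53.

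**Figure D2:**
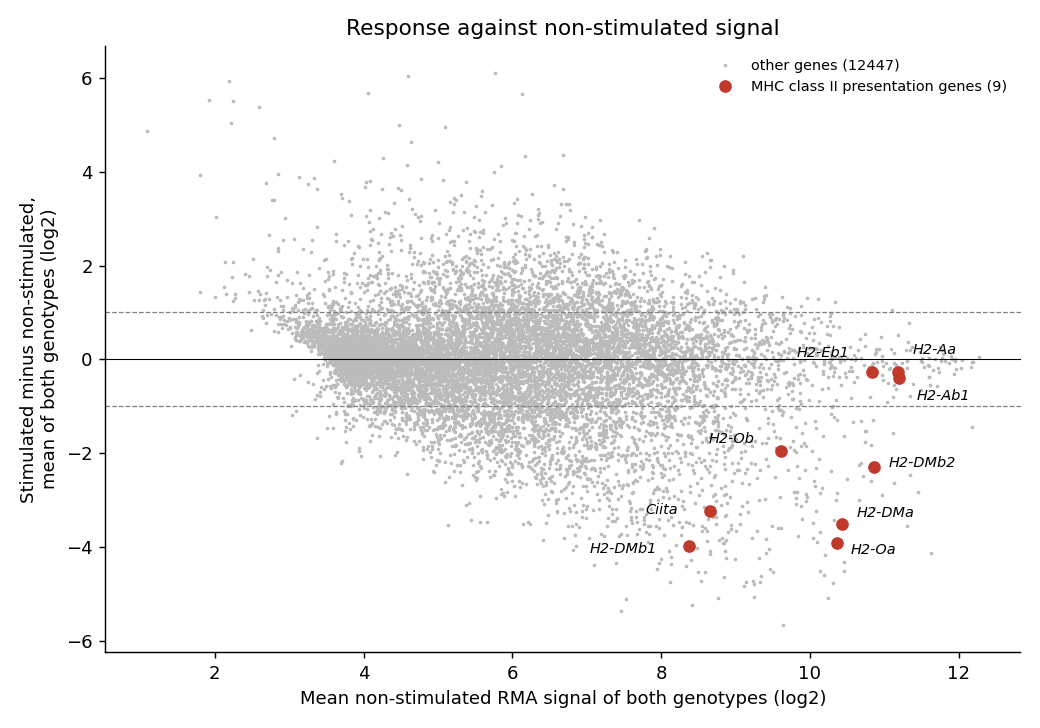
Stimulated minus non-stimulated log2 signal, as the mean of both genotypes, against the mean non-stimulated log2 signal of both genotypes, with each grey point 1 gene and the 9 class II presentation genes in red; dashed lines mark a difference of 1 either way. H2-DMb2 and the chains lie in the same part of the signal range, H2-DMb2 at -2.29 and the chains between -0.40 and -0.27.

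In RefSeq's GRCm38.p6 order the genes other than Ciita lie together on chromosome 17, from H2-Oa, H2-DMa, H2-DMb2 and H2-DMb1 to H2-Ob, H2-Ab1, H2-Aa and H2-Eb1, followed by the further gene H2-Eb2. Between H2-DMb1 and H2-Ob lie the genes of 2 proteasome subunits and of the peptide transporter for class I, of which Psmb8 fell by 2.33 (limma, adjusted p = 0.0016), Tap2 fell by 0.87 (adjusted p = 0.0156), and Psmb9 and Tap1 were not called, at -0.55 and 0.23. H2-Eb2, a further beta chain gene next to H2-Eb1, had 7.67 in TIL_ST and 8.78 in TIL_NS, and 6.84 in WT_ST and 8.73 in WT_NS, and it fell in limma (adjusted p = 0.0091). Btnl2 and Brd2, other genes of the region, were at 0.71 and -0.20 and were not called. H2-Ea, the alpha chain gene of I-E, is a pseudogene in C57BL/6 mice, which for that reason lack surface I-E. Its log2 signal was 3.25 in TIL_ST and 4.40 in TIL_NS, and 3.10 in WT_ST and 4.05 in WT_NS. Its limma call, a change of -1.05 (adjusted p = 0.00749), therefore rests on signals on either side of the floor.

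Without stimulation the genotypes' signals of these genes lay close together. Tilcara minus wild type was between -0.042 for H2-Oa and 0.11 for H2-Ob, with a median of 0.016, the same as over all genes. No member was 2-fold different, where 1.08% of all genes were. The absolute differences were all under the median of 0.18 over all genes.

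After stimulation 4 genes differed by 0.5 or more, in opposite directions. H2-Oa, H2-Ob and H2-DMb2 were higher in the Tilcara array by 0.78, 0.62 and 0.57, which are 1.72-fold, 1.54-fold and 1.48-fold, and Ciita was lower by 1.63-fold (-0.70). The chains, H2-DMa and H2-DMb1 differed by -0.066 to 0.22. None reached 2-fold, where 1.70% of all genes did, and a difference of 0.5 or more was found in 12.2% of all genes. Limma's genotype term called no member and no gene (0 of 12456, 0.00%). An unadjusted p under 0.05 for this limma term was found for 667 genes (5.35%), and the lowest among the members was 0.119, for H2-Ob. The term averages the genotype difference over both states and counts a difference seen only after stimulation partly as error. It is therefore no test of the differences after stimulation.

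The Tilcara response minus the wild-type response was 0.83 for H2-Oa, 0.55 for H2-DMb2, 0.52 for H2-Ob and -0.70 for Ciita, so the decrease was smaller in Tilcara for the first 3 and larger for Ciita. For the other 5 genes it was between -0.17 and 0.14. The size of this difference put H2-Oa at the 92.5th, Ciita at the 88.4th, H2-DMb2 at the 81.2nd and H2-Ob at the 78.5th percentile of all genes. None reached 1, where 3.97% of all genes did. With 1 array per group these differences were not tested, and they share the 4 arrays with the comparisons above.

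**Figure D3:**
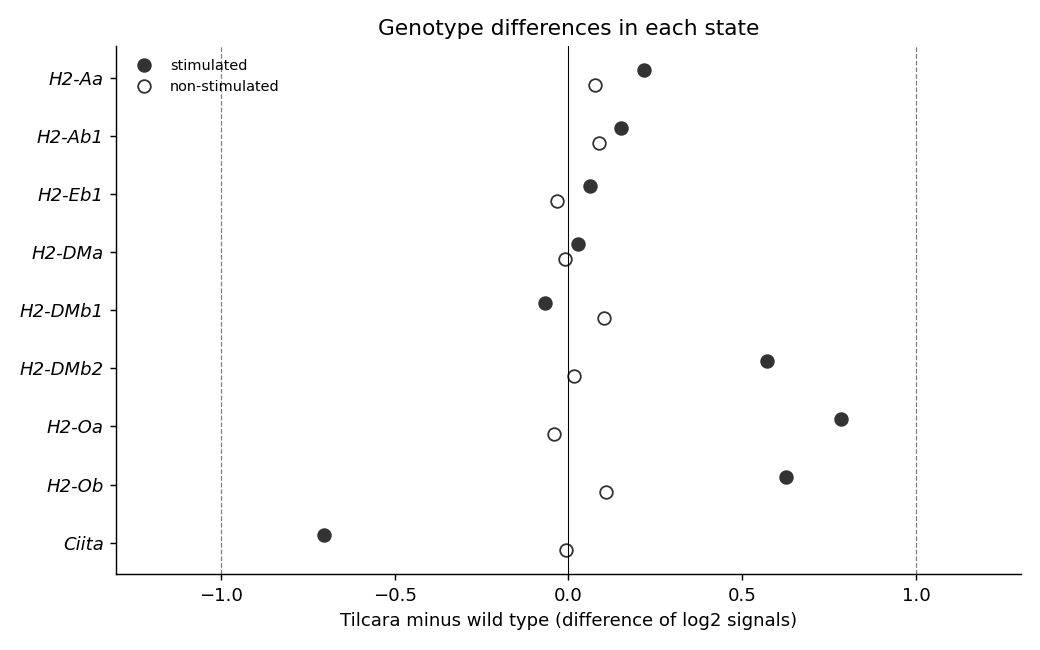
Tilcara minus wild type, as a difference of log2 signals, for each gene in the stimulated state (filled) and the non-stimulated state (open), each point a difference of 2 single arrays; dashed lines mark 2-fold. Non-stimulated points lie between -0.042 and 0.11, and 4 stimulated points lie beyond 0.5 in size, with Ciita alone on the negative side.

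Other genes of the pathway were followed in lists of known function. Beside the limma counts of each list stand the shares over all genes, of which 22.8% fell and 22.0% rose. Of 7 measured factors of the X and Y boxes, 3 fell in limma and none rose, with a median difference of -0.46 in Tilcara and -0.37 in wild type. Those 3 were Rfx5 (-0.62, adjusted p = 0.0322), Rfxank (-0.64, adjusted p = 0.0374) and Creb1 (-0.92, adjusted p = 0.00984). Rfx5 and Rfxank encode subunits of the RFX complex, and Creb1 a factor of the X2 part of the X box. Rfxap, the other RFX subunit, and the NF-Y genes Nfya, Nfyb and Nfyc were at 0.20, -0.16, -0.50 and 0.31 and were not called. None of the 7 was 2-fold different in either genotype.

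Factors known to act on Ciita or on B cell identity split evenly, 5 falling, 5 rising and 2 not called of 12 in limma. The ETS family factors Spib (-3.59) and Spi1 (-1.16) fell, as did the B cell factors Pax5 (-3.13), Tcf3 (-1.72) and Foxo1 (-1.40), while Ebf1 and Bcl6 were at -0.47 and -0.46 and not called. The interferon regulatory factors Irf4 (2.08), Irf8 (1.23) and Irf1 (1.99), the last of which mediates the interferon response of Ciita in other cells, rose. Prdm1, which encodes Blimp-1, a repressor of Ciita in plasma cells, rose by 0.92 (limma, adjusted p = 0.0297), and Zbtb32, which is known to act with Blimp-1 on Ciita, rose by 2.60 (adjusted p = 0.00357). Prdm1 stayed low, with 5.19 in TIL_ST and 3.93 in TIL_NS, and 4.80 in WT_ST and 4.24 in WT_NS. Zbtb32 had 6.36 in TIL_ST and 4.27 in TIL_NS, and 7.56 in WT_ST and 4.45 in WT_NS, so that after stimulation it was 1.20 lower in Tilcara. It was the only one of these 12 that differed by 2-fold between the genotypes in either state.

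Genes of the endosomal proteins that prepare peptides mostly fell. Of 12 measured genes 9 fell, 1 rose and 2 were not called in limma, with a median difference of -1.64 in Tilcara and -1.60 in wild type. Ctss, for cathepsin S, which trims the invariant chain, fell by 2.20 (adjusted p = 0.00172), and Ctsh, for cathepsin H, fell by 2.63 (adjusted p = 0.00132). Lgmn, for the asparagine endopeptidase legumain, fell by 2.66 (adjusted p = 0.00173), and Cst3, for the cathepsin inhibitor cystatin C, fell by 2.85 (adjusted p = 0.00121). The other genes that fell were Sppl2a (-1.94), for the membrane protease that clears the last fragment of the invariant chain, Ifi30 (-1.75), for the thiol reductase GILT, Psap (-1.53), for the precursor of lysosomal saposins, and the cathepsin genes Ctsd (-0.95) and Ctsc (-0.75). Ctsb, for cathepsin B, rose by 0.64 (limma, adjusted p = 0.028), and Ctsl and Ctsz were at 0.48 and -0.45 and not called.

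Genes of class II trafficking and turnover went both ways, with 4 falling, 4 rising and 2 not called of the 10 above the floor. Marchf1, for the ubiquitin ligase that sends surface class II to degradation, fell by 1.54 (limma, adjusted p = 0.00265), while Cd83, whose product opposes it, rose by 0.80 (adjusted p = 0.0151). Marchf1 had 3.72 in TIL_ST and 5.25 in TIL_NS, and 3.65 in WT_ST and 5.20 in WT_NS, so both stimulated values were below the floor. Of the tetraspanins found with class II in endosomes and at the surface, Cd63 (5.50) and Cd9 (2.05) rose, whereas Cd37 (-2.70) and Cd82 (-0.85) fell. The non-stimulated signals of Cd63, 2.17 in TIL_NS and 2.32 in WT_NS, lay below the floor. Tfeb (-0.87), for a factor that drives lysosomal genes, fell, with 2.92 in TIL_ST and 4.03 in TIL_NS, and 3.42 in WT_ST and 4.04 in WT_NS, so that both stimulated values were below the floor, and Rab7 (0.59), for a late endosome GTPase, rose. The adaptor genes Ap1g1 and Ap2m1 were at 0.29 and 0.51 and not called, and Marchf8 stayed below the floor.

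**Figure D4:**
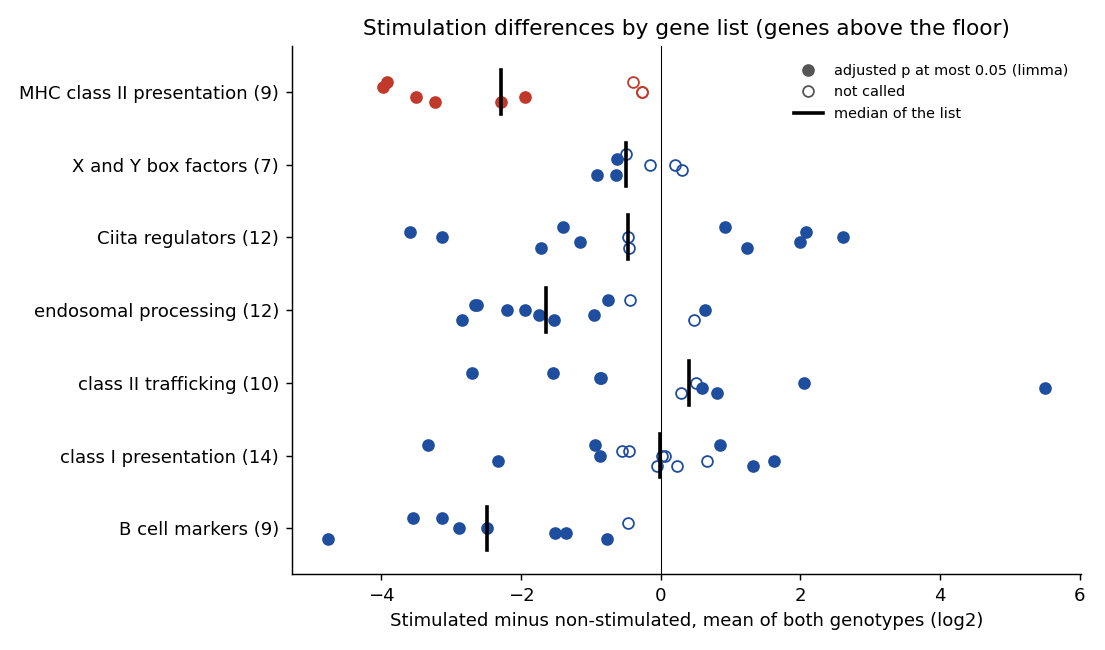
Stimulated minus non-stimulated log2 signal, as the mean of both genotypes, for each gene above the floor in 7 lists, with the number of genes in brackets; filled points passed limma at an adjusted p of 0.05, open points did not, and black bars are list medians. The class II genes split into 6 filled points between -3.98 and -1.95 and 3 open points between -0.40 and -0.27.

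The arrays held the markers of B cells. All 9 measured B cell markers were above the floor in each array, although 8 of them fell with stimulation, including Cd22 (-4.77), Cd79b (-3.55) and Ms4a1 (-2.49), and none rose. Their median difference was -2.45 in Tilcara and -2.40 in wild type, beside -2.01 and -2.56 for the class II genes. Cd79b had 8.57 in TIL_ST and 11.23 in TIL_NS, and 6.96 in WT_ST and 11.39 in WT_NS. It was 1.61 higher in stimulated Tilcara, the only B cell marker that differed by 2-fold between the genotypes, and this was not tested. Among markers of other cells that carry class II, Flt3, Xcr1 and Batf3 of dendritic cells stayed below the floor in all 4 arrays. Of the other 4 dendritic cell markers, Cd209a fell by 0.55 (limma, adjusted p = 0.0401) and Siglech fell by 1.75 (adjusted p = 0.00231), Zbtb46 rose by 0.92 (adjusted p = 0.00933), and Itgax was not called. Cd209a was above the floor on all arrays, between 5.46 in WT_ST and 6.19 in TIL_NS, and Siglech had 3.42 in TIL_ST and 5.06 in TIL_NS, and 3.06 in WT_ST and 4.93 in WT_NS. The summed linear signal of the 7 measured dendritic cell markers was 122 in TIL_ST and 162 in TIL_NS, and 127 in WT_ST and 156 in WT_NS. That of 8 macrophage markers was 270 in TIL_ST and 167 in TIL_NS, and 236 in WT_ST and 261 in WT_NS. Of the 7 above the floor, Cd68 rose by 1.07 (limma, adjusted p = 0.017), Adgre1 fell by 1.39 (adjusted p = 0.0136) and Lyz2 fell by 1.81 (adjusted p = 0.032). Lyz2 had 2.52 in TIL_ST and 3.43 in TIL_NS, and 3.28 in WT_ST and 5.99 in WT_NS. The 6 neutrophil markers summed to 37.0 in TIL_ST and 52.5 in TIL_NS, and to 45.8 in WT_ST and 747 in WT_NS, with 4 of them below the floor in all arrays. The 6 T cell markers summed to 61.4 in TIL_ST and 74.8 in TIL_NS, and to 80.4 in WT_ST and 140 in WT_NS. The 5 markers of thymic epithelium, which also carries class II, summed to 324 in TIL_ST and 100 in TIL_NS, and to 264 in WT_ST and 99.6 in WT_NS, and the only one called was Epcam, for an adhesion molecule, which rose by 3.03 (limma, adjusted p = 0.00121). The part of these other cells in the class II values was not tested. RMA gives no value of 0, so none of these markers is at 0.

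The genes with the most similar profile over the 4 arrays were sought by the Euclidean distance between mean-centred log2 signals. Closest to Ciita were Fcgrt, for the neonatal Fc receptor (distance 0.109), Bcl2, for the survival protein (0.158), Nedd4, for a ubiquitin ligase (0.183), Susd1 (0.208) and Napsa, for an aspartic protease (0.256). Each of these was lower in stimulated Tilcara than in stimulated wild type by 0.46 to 0.77. That likeness to Ciita follows from how they were picked. The class II member closest to Ciita was H2-DMa (0.588), at rank 72. Closest to H2-Oa were St6gal1, for a sialyltransferase (0.149), Dock8, for a guanine nucleotide exchange factor (0.151), Ptpn6, for the phosphatase SHP-1 (0.207), Plekha2 (0.230) and S1pr1, for a receptor of lymphocyte egress (0.246). All 5 were higher in stimulated Tilcara than in stimulated wild type by 0.54 to 0.98, again by the way they were picked. Closest to H2-Aa were Hs3st1, Tma7, Pcyox1, Plekhf2 and Dop1a, at 0.0086 to 0.0403, where many genes with small differences crowd, and H2-Eb1 and H2-Ab1 stood at ranks 136 and 151. These distances describe 4 single arrays and carry no error.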

How the data were processed

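The values are log2 signals for 41345 probe sets on 4 arrays. The authors deposited them after RMA, per the submitters' processing notes, a method of background correction, quantile normalization between arrays and summary to 1 log2 value per probe set, of which no version is named. Quantile normalization hides changes in total RNA per cell. Array medians were 3.73 to 3.79. Pearson's r over probe sets was 0.978 to 0.981 within a state and 0.916 to 0.927 between states.

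In the platform annotation 23521 probe sets carried 1 symbol, 1814 several and 16010 none, and only the first kind was named. The probe set with the highest mean stood for its gene, and genes with a highest signal of at least 3.83 were kept. Differences were counted at 1 (2-fold). limma 3.58.1 in R 4.3.3 fitted stimulation and genotype over the 4 arrays, with a threshold of 0.05 after Benjamini-Hochberg adjustment. It was also run on simulated data with independent noise and the same response in both genotypes, which is no check of its p-values here. Its p-values rest on how alike the genotypes responded and on a prior variance taken over all genes. They measure no spread between replicates, and the arrays' number limits all precision.

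The members, gene lists and tests were chosen with earlier results of these data known. Named genes were the members, genes of the lists (all of the X and Y box factors and trafficking lists, and the largest or 2-fold differences of others) and the 5 nearest profiles of Ciita, H2-Aa and H2-Oa, without predicted genes, small RNAs and receptor segments. H2-Ea was followed through its own symbol. Alternatives were median centring, cyclic loess, the mean over probe sets, no filter, a floor of 5, a 1.5-fold threshold and other limma models; leaving out the genes of the neutrophil, macrophage and T cell lists was added after seeing the data.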

Additional observations from a re-analysis of the deposited data

Results flagged for a closer look

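In 4 of the 9 genes Tilcara minus wild type went one way in the stimulated state and the other way in the non-stimulated state, each on single arrays, and the difference was not tested. H2-Oa was at 0.78 with stimulation and -0.042 without it. The others were smaller in both states: H2-DMb1 at -0.066 with stimulation and 0.10 without it, H2-Eb1 at 0.061 and -0.032, and H2-DMa at 0.028 and -0.011. Other scalings turned several of these small signs, bringing the non-stimulated difference to as much as 0.014 for H2-Oa, 0.023 for H2-Eb1 and 0.044 for H2-DMa, while that of H2-DMb1 kept its sign in both states.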

How the results depend on the processing

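The 6 members that fell with stimulation did so in all 9 limma settings, with adjusted p-values of 7.3e-05 to 0.00429. The other class II genes, the chains, were called in 1 of those settings (H2-Aa and H2-Eb1) or 2 (H2-Ab1), as given above. No member reached 2-fold between the genotypes in any scaling, filter or probe set setting. At 1.5-fold, 1 member was lower and 2 were higher in stimulated Tilcara, and by response 1 was lower and 1 higher. After cyclic loess the wild-type median of the members was -2.78; the cause was not tested. Over all genes, the 1.5-fold threshold by construction gave 2834 lower and 2766 higher with stimulation in Tilcara, and 3083 lower and 2951 higher in wild type. For Tilcara against wild type it gave 422 lower and 413 higher without stimulation, 455 lower and 584 higher with it, and 1003 lower and 1091 higher by response. A floor of 5, which tests fewer genes, gave 47 lower and 35 higher without stimulation, and 135 lower and 191 higher by response. No filter, which tests more genes, gave 331 lower by response. The limma fit with the genotype term already sets both states of a genotype against each other. No pairing beyond that was possible, because each group has 1 array and no replicate number. With 1 array a group no array could be left out of the limma fit with any residual degree of freedom. Signals near the floor limit H2-DMb1. The chains were read near the top of the range, and whether their differences were compressed there was not tested.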

Other observations

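Genes of class I presentation, which loads peptides from the cytosol, went both ways with stimulation. Of 14 measured genes, 4 fell, 3 rose and 7 were not called in limma, where 22.8% of all genes fell and 22.0% rose. Their median difference was -0.043 in Tilcara and -0.051 in wild type. The immunoproteasome genes Psmb10 (-3.33, adjusted p = 0.00162) and Psmb8 (-2.33, adjusted p = 0.0016) fell, as did Tapbp, for tapasin (-0.95, adjusted p = 0.00861), and Tap2. Erap1, for an aminopeptidase that trims peptides (1.62, adjusted p = 0.00238), Nlrc5, for the transactivator of class I genes and a relative of CIITA (1.32, adjusted p = 0.00996), and Canx, for calnexin (0.85, adjusted p = 0.0115), rose. B2m, for the light chain of class I, was at -0.052 (limma, adjusted p = 0.804), and H2-K1, a heavy chain, at -0.46 (adjusted p = 0.0672). Nlrc5 had 6.96 in TIL_ST and 5.31 in TIL_NS, and 6.75 in WT_ST and 5.77 in WT_NS, whereas Ciita was lower in both stimulated arrays. Tapbpl, for the tapasin-like protein TAPBPR, had 8.07 in TIL_ST and 6.86 in TIL_NS, and 6.97 in WT_ST and 6.85 in WT_NS. It was the only gene of this list that differed by 2-fold between the genotypes, being 1.10 higher in stimulated Tilcara, and limma did not call it for stimulation (adjusted p = 0.139). These differences between genotypes were not tested.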
